A study of Mus musculus with 12 samples.

Results

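The integrated stress and growth-arrest response was followed through 10 genes chosen by symbol: Atf3, Atf4, Atf5, Ddit3, Trib3, Asns, Phgdh, Psat1, Cdkn1a and Gdf15. Probe sets whose single gene symbol was one of these were taken from an array table of mouse liver mRNA. The table held 4 of the 10 genes, namely Trib3, Asns, Atf5 and Atf4, on 7 probe sets among 8554 that named a single gene. The other 6 (Atf3, Ddit3, Phgdh, Psat1, Cdkn1a and Gdf15) had no probe set in it and their levels were not analysed here. The authors deposited only probe sets whose intensity passed 100 in 1 or more genotypes.

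Livers came from 8-week-old male C57BL/6 mice of 4 genotypes, 3 mice and 3 arrays for each, untreated. Keap1-HKO mice came from Keap1-KD mice crossed with AlbCre+ mice, in which the albumin promoter drives Cre in hepatocytes, and so also carry the knockdown allele. Keap1-KD mice carry the loxP-bearing allele alone and have less Keap1 in the whole body. Nrf2-null mice lack Nrf2, and wild-type mice are the control. Keap1 holds Nrf2 in check, so that Nrf2 activity is graded, least in Nrf2-null mice, then wild-type, then Keap1-KD and most in Keap1-HKO mice, and the comparisons ask which mRNAs follow it. Values are log2 intensities after gcRMA, on which 100 is 6.64.

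Stress kinases that sense a lack of amino acids, misfolded proteins in the endoplasmic reticulum (ER), viral RNA or a lack of heme phosphorylate the translation factor eIF2. General protein synthesis then slows while translation of ATF4, a transcription factor, goes up, so that much of ATF4's control lies above its mRNA. ATF4 and its partners switch on Asns, Trib3, Ddit3 (CHOP) and enzymes of serine synthesis such as Phgdh and Psat1. Cdkn1a (p21) stops the cell cycle, and Gdf15 is a secreted stress hormone.

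The starts of Trib3 and Asns are shown because these genes are textbook ATF4 targets and both had array values. RefSeq windows of GRCm38.p6 from 250 bases before to 50 bases after the annotated start were searched on both strands for 3 motifs. These were TGATGNAA, part of the composite element bound by C/EBP and ATF proteins (TTNCATCA on the other strand), TGACGTNA, the ATF/CRE motif (TNACGTCA), and TGACNNNGC, the core of the antioxidant response element that Nrf2 binds (GCNNNGTCA). Of 32851 such windows in the mouse table, 3.97% held TGATGNAA, 2.93% TGACGTNA and 12.4% TGACNNNGC, and no 2 of the matches below overlap. Capitals mark matches, and the start is position 1.
Trib3, chr2:152344011-152344310, minus strand: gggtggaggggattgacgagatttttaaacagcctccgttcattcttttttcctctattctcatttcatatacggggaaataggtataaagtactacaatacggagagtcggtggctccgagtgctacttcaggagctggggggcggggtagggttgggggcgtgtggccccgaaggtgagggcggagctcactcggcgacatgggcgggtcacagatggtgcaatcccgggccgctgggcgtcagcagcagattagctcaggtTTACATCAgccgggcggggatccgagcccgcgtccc
Asns, chr6:7693160-7693459, minus strand: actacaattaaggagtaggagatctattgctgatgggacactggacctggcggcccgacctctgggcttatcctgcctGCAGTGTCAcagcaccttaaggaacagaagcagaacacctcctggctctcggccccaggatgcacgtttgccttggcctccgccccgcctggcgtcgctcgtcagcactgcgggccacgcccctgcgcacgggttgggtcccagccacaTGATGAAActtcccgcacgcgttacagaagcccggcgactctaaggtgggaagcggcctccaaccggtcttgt
In the Trib3 window TTACATCA lay at positions 15 to 22 after the start. In the Asns window TGATGAAA lay 23 to 16 bases before the start and GCAGTGTCA 172 to 164 bases before it. All 10 genes matched RefSeq windows by symbol, and among the rest Atf3 held TTGCATCA and TTACGTCA, Phgdh GCGGAGTCA and 1 of 2 Cdkn1a windows GCGGTGTCA. The windows of Atf4, Atf5, Ddit3, Gdf15 and Psat1 held none of these letters. A match describes the sequence and is not evidence of binding.

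Several arrays stood apart. The median of 15 measured pancreatic acinar markers (of 20 listed) was 13.9 on Keap1-HKO array 2 and 10.9 on Keap1-HKO array 3, with all 15 above 100. On the other 10 arrays it was 2.31 to 2.49, with 1 or 2 of the 15 above 100. The median of 11 skeletal muscle markers (of 17) was 10.9, 9.50 and 10.4 on Keap1-HKO arrays 2 and 3 and wild-type array 2, and 2.31 to 2.93 on the other 9. Keap1-HKO array 1 and Nrf2-null array 1 deviated most from their genotype means, by 0.601 and 0.387 on average over genes, against 0.0980 to 0.374 for the other 10. The 3′ minus 5′ probe set difference is a sign of RNA quality, a smaller value meaning less 3′ bias. On Keap1-HKO array 1 it was the smallest, 2.03 for actin and 0.192 for Gapdh, against 2.36 to 2.91 and 0.529 to 0.931 on the other 11. The median of 8 hepatocyte markers was 15.30, 15.31 and 15.47 on the Keap1-HKO arrays, all below the other 9 (15.54 to 15.69). The 1 erythroid marker of 7 with a probe set, Alas2, read 7.74 to 8.63 in Keap1-HKO and 9.53 to 9.71 in wild-type mice. The part of these differences in the results below was not tested. Nfe2l2 (Nrf2) and Keap1 followed the labels: Nfe2l2 averaged 2.35 in Nrf2-null and 8.90 in wild-type mice, and Keap1 averaged 3.36 in Keap1-HKO, 5.70 in Keap1-KD and 7.86 in wild-type mice.

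Trib3 read higher on the arrays of both Keap1 genotypes than on any Nrf2-null or wild-type array. It had its place in the table through those 2 genotypes, and its Keap1-HKO call ended when values under 100 were raised to 100 (limma difference 1.65, adjusted p = 0.104). It encodes a pseudokinase that binds Akt and restrains ATF4, as part of the feedback in this response. On probe set 1456225_x_at (the x in a name marks probes that can match other transcripts) the log2 intensity was 9.18, 6.93 and 8.77 in Keap1-HKO mice, 6.51, 7.67 and 7.71 in Keap1-KD mice, 5.51, 3.81 and 5.08 in Nrf2-null mice, and 5.43, 5.22 and 6.05 in wild-type mice. All Keap1-HKO and all Keap1-KD arrays were above all Nrf2-null and wild-type arrays, while Keap1-HKO and Keap1-KD overlapped. Means were 8.30 ± 1.20 in Keap1-HKO, 7.30 ± 0.68 in Keap1-KD, 4.80 ± 0.88 in Nrf2-null and 5.57 ± 0.43 in wild-type mice (SD, n = 3 each). Arrays above 100 numbered 3 in Keap1-HKO, 2 in Keap1-KD, 0 in Nrf2-null and 0 in wild-type mice. The tests of Trib3 below are of a gene that passed the intensity filter through the genotypes where it was high, and are given as a description.

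The log2 fold change of Trib3 in Keap1-HKO mice was 2.73 (standard error 0.62, 95% confidence interval 1.35 to 4.10, limma adjusted p = 0.0377). Since the wild-type mean lay under 100, where arrays hold mainly background, the fold on the linear scale is given against 100. The Keap1-HKO mean of log2 values lay 3.14-fold above 100, a figure that leaves out the spread between mice (Keap1-HKO array 2 read 122). Keap1-KD mice differed by 1.73 on the log2 scale (standard error 0.62, interval 0.35 to 3.10, limma adjusted p = 1). Their mean lay 1.57-fold above 100, again without its spread, and Keap1-KD array 1 was itself under 100 (91.1). Keap1-HKO and Keap1-KD differed by 0.999 (interval −0.38 to 2.38, limma adjusted p = 0.524). Nrf2-null and wild-type mice were both under 100, so no fold is given. The slope was 1.22 per genotype step (standard error 0.20, limma adjusted p = 0.00333), and 0.57 (adjusted p = 0.0486) with values raised to 100, since Nrf2-null and wild-type readings lay under it. In this bulk tissue a change in the number of cells that make an mRNA and a change in mRNA per cell cannot be told apart.

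The other Trib3 probe set, 1426065_a_at, read 9.21, 6.75 and 8.66 in Keap1-HKO mice, 6.46, 7.33 and 7.66 in Keap1-KD mice, 4.63, 3.73 and 4.79 in Nrf2-null mice, and 5.23, 4.63 and 5.79 in wild-type mice. It ordered the genotypes like the first. Tested by itself among all probe sets, it differed by 2.99 in Keap1-HKO mice (limma adjusted p = 0.0227). The call of the first in Keap1-HKO mice held in 13 of 24 alternatives, with adjusted p between 0.00669 and 0.346 and the difference above 0 in all 24. It ended without Nrf2-null array 3 (0.0582), Keap1-KD array 2 (0.0601) or 3 (0.0607), Keap1-HKO array 1 (0.0847) or 3 (0.103), or wild-type array 1 (0.122), 2 (0.146) or 3 (0.0863), these being adjusted p from limma. The slope stayed called in all 23 alternatives, with limma adjusted p up to 0.0486. All of these use the same filtered table, which held Trib3 through the genotypes where it was high, so they are no separate support for a rise.

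**Figure D1:**
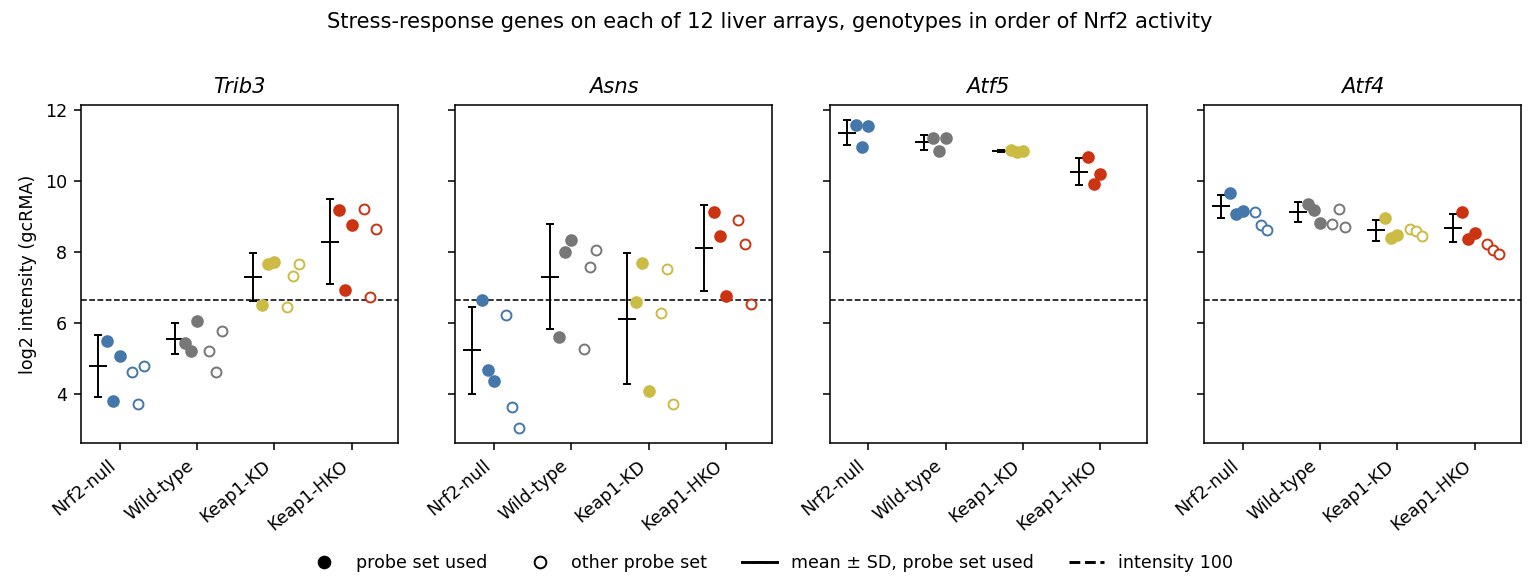
Log2 intensity (vertical axis) of Trib3, Asns, Atf5 and Atf4 on each of 12 arrays, by genotype in the order of Nrf2 activity. Filled points are the probe set used for testing, open points the other probe set of the gene, black bars the mean ± SD of 3 mice, and the dashed line an intensity of 100. Trib3 is above the line on 3 Keap1-HKO and 2 Keap1-KD arrays and on 0 Nrf2-null and wild-type arrays, and Atf5 is lowest in Keap1-HKO mice.

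Keap1-HKO array 1, which deviated most from its genotype and had a pancreatic marker median of 2.38, held the highest Trib3 value (9.18), and array 2, with a median of 13.9, had the lowest of that genotype (6.93). Without Keap1-HKO arrays 2 and 3 the difference from wild-type was 3.61 (limma adjusted p = 0.00669, with 1 Keap1-HKO array assumed to vary like the other genotypes). Without Keap1-HKO array 1 and Nrf2-null array 1 it was 2.28 (limma adjusted p = 0.0400). The part of the pancreatic transcripts and of RNA quality in the Trib3 result was not tested.

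**Figure D2:**
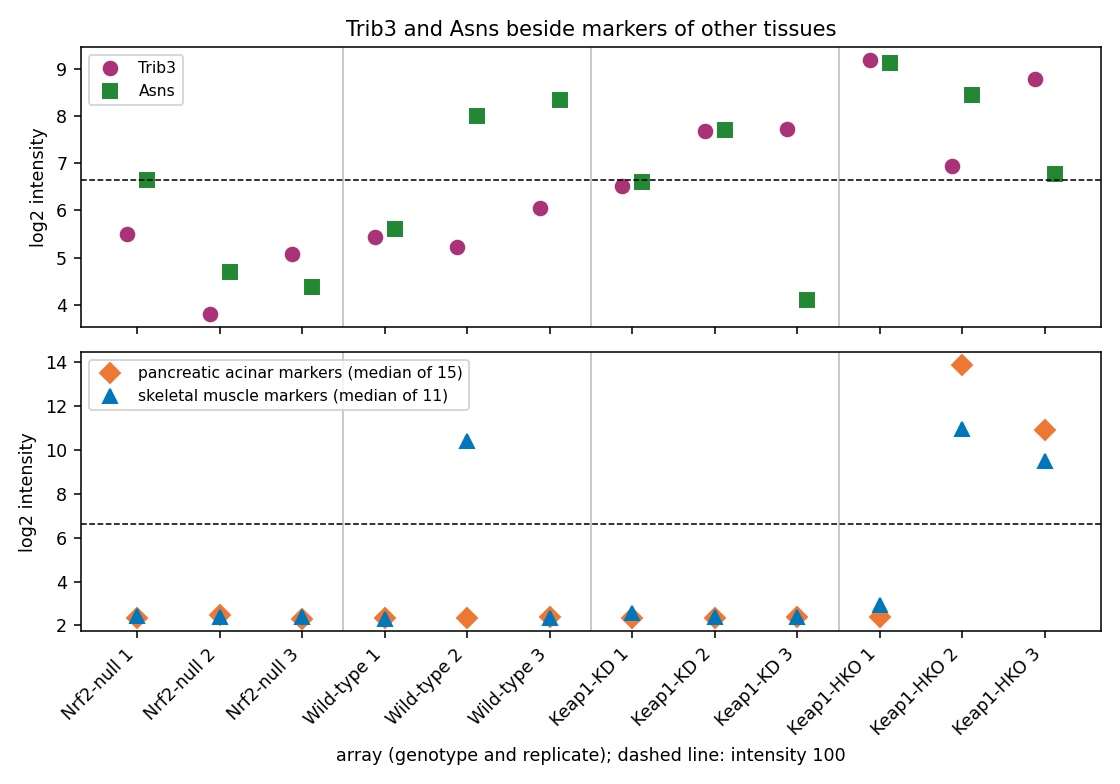
Log2 intensity on each of 12 arrays, with Trib3 and Asns above and the medians of 15 pancreatic acinar and 11 skeletal muscle markers below; the dashed line is an intensity of 100. The pancreatic median is 13.9 and 10.9 on Keap1-HKO arrays 2 and 3, while Trib3 is highest, at 9.18, on Keap1-HKO array 1.

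Asns, the enzyme that makes asparagine and the best known amino acid response target of ATF4, was not called in any comparison. Probe set 1451095_at read 9.12, 8.45 and 6.76 in Keap1-HKO mice, 6.61, 7.69 and 4.10 in Keap1-KD mice, 6.65, 4.69 and 4.38 in Nrf2-null mice, and 5.61, 8.00 and 8.34 in wild-type mice. Every genotype spanned more than 2 units of log2 and each overlapped the wild-type arrays. The spread within genotypes was 1.21 in Keap1-HKO, 1.84 in Keap1-KD, 1.23 in Nrf2-null and 1.48 in wild-type mice (SD), against a median of 0.291 over all genes. The mean of log2 values lay under 100 in Nrf2-null (5.24) and Keap1-KD mice (6.13), with 1 of 3 arrays above 100 in each. Arrays hold mainly background there, so the sizes of the Asns differences in these 2 genotypes are not read as folds.

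Against wild-type mice Asns differed by 0.80 in Keap1-HKO mice (interval −1.57 to 3.16, limma adjusted p = 0.650), by −1.18 in Keap1-KD mice (interval −3.55 to 1.19, adjusted p = 1) and by −2.08 in Nrf2-null mice (interval −4.44 to 0.29, adjusted p = 0.811). Its slope was 0.74 per genotype step (standard error 0.34, adjusted p = 0.230). Probe set 1433966_x_at tracked it with r = 0.991 over the 12 arrays, and its Nrf2-null difference was −2.66 (limma adjusted p = 0.741). These intervals leave room for changes of several fold in either Keap1 genotype, so a change was not detectable with 3 mice a group. Asns and Trib3 ran together only in part from array to array (r = 0.43 over 12 arrays, a description over arrays that share genotypes). Both were highest on Keap1-HKO array 1 (9.12 for Asns and 9.18 for Trib3). On Keap1-KD array 3, Asns was at its lowest, 4.10, where Trib3 was 7.71.

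Atf5 had a called downward slope over the graded genotypes, while limma called none of the pairs compared. It encodes a transcription factor of the ATF4 family that is translated under stress and is abundant in liver. Its single probe set, 1425927_a_at, read 10.68, 9.93 and 10.19 in Keap1-HKO mice, 10.88, 10.83 and 10.86 in Keap1-KD mice, 11.57, 10.97 and 11.56 in Nrf2-null mice, and 11.22, 10.85 and 11.21 in wild-type mice. All Keap1-HKO arrays were below all arrays of the other 3 genotypes, while Keap1-KD overlapped wild-type. Mean un-logged intensities were 1261 ± 197 in Keap1-HKO, 1857 ± 20.0 in Keap1-KD, 2689 ± 344 in Nrf2-null and 2199 ± 180 in wild-type mice (SEM, n = 3 each).

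The slope of Atf5 was −0.35 per genotype step (standard error 0.07, limma adjusted p = 0.0115). By pairs, it differed from wild-type by −0.83 in Keap1-HKO mice (interval −1.32 to −0.33, limma adjusted p = 0.0773), by −0.23 in Keap1-KD mice (adjusted p = 1) and by 0.27 in Nrf2-null mice (adjusted p = 0.823). Keap1-HKO and Keap1-KD mice differed by −0.59 (interval −1.09 to −0.10, adjusted p = 0.286). Without Keap1-HKO array 1, on which Atf5 was highest for that genotype (10.68), the Keap1-HKO difference from wild-type was −1.03 (adjusted p = 0.0200). Without Keap1-HKO arrays 2 and 3, those with pancreatic transcripts, it was −0.41 (adjusted p = 0.203) and the slope −0.23 (adjusted p = 0.0519). The part of those transcripts in the Atf5 result was not tested.

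Atf4 encodes the transcription factor at the centre of the response, and its mRNA was not called on the probe set used. Probe set 1448135_at read 9.12, 8.37 and 8.54 in Keap1-HKO mice, 8.96, 8.40 and 8.49 in Keap1-KD mice, 9.66, 9.07 and 9.15 in Nrf2-null mice, and 9.36, 9.20 and 8.83 in wild-type mice. Keap1-HKO and Keap1-KD arrays overlapped each other and the wild-type arrays. The differences from wild-type were −0.45 in Keap1-HKO (limma adjusted p = 0.349), −0.52 in Keap1-KD (adjusted p = 1) and 0.16 in Nrf2-null mice (adjusted p = 0.850), and the slope was −0.24 per step (adjusted p = 0.103). The slope was called without Keap1-HKO array 1 (−0.30, adjusted p = 0.0252).

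The other Atf4 probe set gave a lower reading in Keap1-HKO mice. Probe set 1438992_x_at, again with the x, read 8.22, 8.05 and 7.95 in Keap1-HKO mice, 8.67, 8.59 and 8.46 in Keap1-KD mice, 9.14, 8.78 and 8.63 in Nrf2-null mice, and 8.78, 9.21 and 8.71 in wild-type mice. All Keap1-HKO arrays were below all other arrays, and all Keap1-KD arrays below all wild-type arrays. Tested among all 8554 probe sets, it differed from wild-type by −0.82 in Keap1-HKO mice (standard error 0.18, limma adjusted p = 0.0300), where 4.26% of probe sets were called. Its slope was −0.26 per step (adjusted p = 0.0151), where 9.78% were called. The 2 probe sets correlated with r = 0.700 over the arrays. In Keap1-HKO mice both differed from wild-type downward (−0.45 and −0.82), and whether Atf4 was called depends on which is read.

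**Figure D3:**
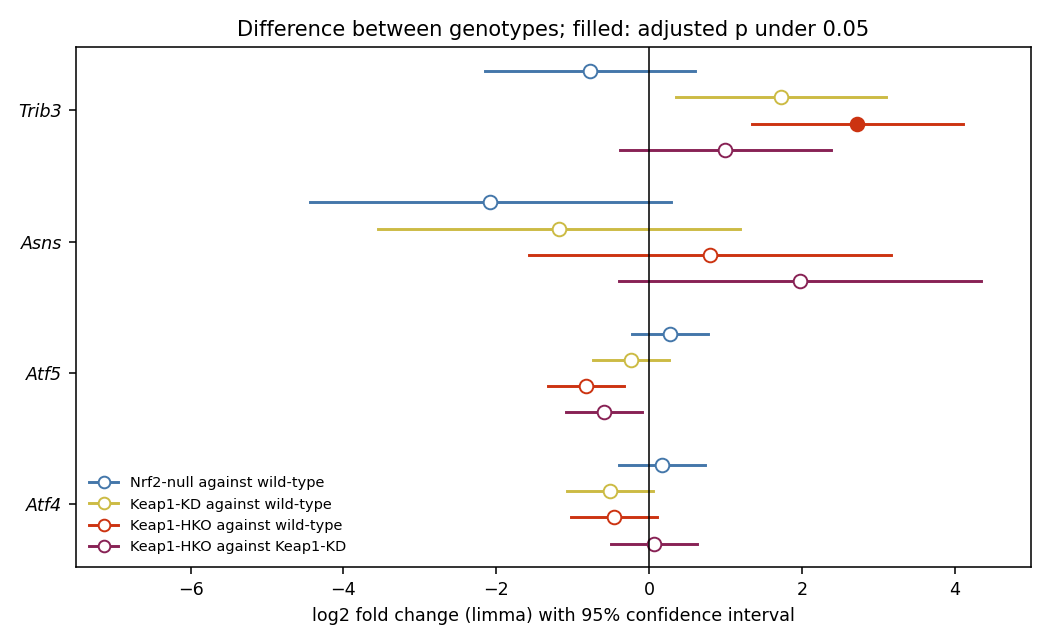
Log2 fold change with its 95% confidence interval (horizontal axis) of Trib3, Asns, Atf5 and Atf4 in 4 comparisons, from limma on the probe set used for each gene. The point for Trib3 in Keap1-HKO against wild-type mice, at 2.73, is the one filled for an adjusted p under 0.05, and the Asns intervals all span 0.

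Counted over the 4 genes measured, limma called 1 in Keap1-HKO mice (Trib3), 0 in Keap1-KD mice and 0 in Nrf2-null mice against wild-type, and 0 in Keap1-HKO against Keap1-KD mice. Over all 5856 genes tested 3.94% were called in Keap1-HKO, 0.0683% in Keap1-KD and 0.41% in Nrf2-null mice, and 1.43% in Keap1-HKO against Keap1-KD mice. Genes with an unadjusted p under 0.05 numbered 2 of 4 in Keap1-HKO (18.6% of all genes), 1 in Keap1-KD (2.54%), 0 in Nrf2-null (6.92%) and 1 in Keap1-HKO against Keap1-KD mice (12.8%). Duncan's multiple range test, the test of the study's methods, called Trib3 and Atf5 in Keap1-HKO mice (12% of all genes), Trib3 in Keap1-KD mice (2.25%), 0 in Nrf2-null mice (5.4%) and Atf5 in Keap1-HKO against Keap1-KD mice (9.61%). Genotypes did not overlap for 2 of 4 in Keap1-HKO (27.5% of all genes), 1 in Keap1-KD (15.2%), 0 in Nrf2-null (20.8%) and 1 in Keap1-HKO against Keap1-KD mice (18.7%). The slope was called for 2 of 4, Trib3 upward and Atf5 downward, where 9.2% of all genes were called. With 4 genes these counts describe the genes by name and not the response as a whole, and 1 of them, Trib3, passed the intensity filter through the genotypes in which it was high.

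Among all genes, those with the profile most like Trib3 over the 12 arrays were Coq7 (r = 0.934), Slc35d1 (r = 0.932) and Dpys (r = 0.923). Atf5 was most like Zhx3 (r = 0.969), Paqr9 (r = 0.948) and Fads1 (r = 0.947), and Atf4 most like Nisch (r = 0.918), Pcyt1a (r = 0.916) and Ptms (r = 0.893). Asns was most like Slc30a5 (r = 0.900), Dio1 (r = 0.864) and Ipo5 (r = 0.858). Between members, Atf4 and Atf5 ran together (r = 0.72), and both ran opposite to Trib3 (r = −0.54 for Atf4 and r = −0.57 for Atf5). All of these describe arrays that share genotypes, and carry no test.

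With all arrays in the fit, none of the genes in the wider stress lists passed the same test against wild-type mice. Lists of eIF2 kinases and exchange factors (7 of 12 measured), other ATF4 target genes (15 of 26), cytosolic tRNA synthetases (14 of 38 symbols, old and new) and ER stress genes (21 of 22) together held 55 different genes. Of the 55, limma called 0 in Keap1-HKO, 0 in Keap1-KD and 0 in Nrf2-null mice. With an unadjusted p under 0.05 there were 11 in Keap1-HKO mice (8 higher and 3 lower, 20% of the 55 against 18.6% of all genes), 1 in Keap1-KD mice (1.82% against 2.54%) and 2 in Nrf2-null mice (3.64% against 6.92%). Duncan's test called 5 in Keap1-HKO mice (9.09%, against 12% of all genes), 2 in Keap1-KD mice (Gpt2 and Ern1, 3.64% against 2.25%) and 1 in Nrf2-null mice (Ern1, the kinase IRE1 of the ER stress response, 1.82% against 5.4%). The median log2 fold change of the 55 was 0.09 in Keap1-HKO mice, beside −0.01 over all genes, 0.01 in Keap1-KD mice, beside −0.01, and 0.06 in Nrf2-null mice, beside 0.02. The Keap1-HKO counts moved with the arrays kept, a check chosen after seeing the data. Without Keap1-HKO array 1 there were 7 of the 55 with an unadjusted p under 0.05 (12.7%, against 17% of all genes) and limma called 1, Gpt2. The limma share over all genes in that fit is not given here, so the call is read for that gene alone. Without Keap1-HKO array 1 and Nrf2-null array 1 there were 14 (25.5% against 27.5%). Limma called 4 there, a smaller share of the 55 than it called of all genes in that fit, whose count is in the last paragraph. With array 1 as the only Keap1-HKO array, 1 array stands for the genotype, so no count is read.

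By list, counts in Keap1-HKO mice are at an unadjusted p under 0.05, a threshold that 18.6% of all genes passed. The ATF4 targets had 1 higher and 2 lower of 15, and the tRNA synthetases 2 higher (Kars and Qars, both by 0.53) and 1 lower (Hars, −0.32) of 14. Among the 7 eIF2 genes the 1 that passed was Eif2ak1, the heme-regulated kinase, at 0.51, whose mean passed 100 in Keap1-HKO mice alone. Array 1 carried much of these: without it Kars was at 0.29, Qars at 0.33 and Eif2ak1 at 0.33, and limma called none of the 3 in either fit. Gpt2, a mitochondrial alanine aminotransferase, read 12.53, 11.94 and 12.29 in Keap1-HKO mice, 12.26, 12.59 and 12.38 in Keap1-KD mice, and 12.69, 13.12 and 13.03 in wild-type mice. Both Keap1 genotypes lay below all wild-type arrays, where 27.5% (Keap1-HKO) and 15.2% (Keap1-KD) of all genes did not overlap wild-type. Gpt2 differed by −0.69 in Keap1-HKO (limma adjusted p = 0.0740) and by −0.54 in Keap1-KD mice (adjusted p = 1). The Gpt2 difference in Keap1-HKO mice was −0.83 without array 1 (adjusted p = 0.0300). Cth, which makes cysteine from cystathionine, differed by −0.51 (adjusted p = 0.208), and Sqstm1, a selective autophagy receptor that Nrf2 also induces, by 0.60 (adjusted p = 0.204), both in Keap1-HKO mice. With that array left out, Sqstm1 was at 0.35 (adjusted p = 0.399) and Cth at −0.35 (adjusted p = 0.404). Chac1, which degrades glutathione and is a sensitive ATF4 target, read 7.18, 7.86 and 6.42 in Keap1-HKO mice and 6.95, 6.79 and 6.42 in wild-type mice, which overlap. These and the genes of the next lists were named after their values were seen.

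Among 21 ER stress genes, 4 were higher and 0 lower in Keap1-HKO mice at an unadjusted p under 0.05, a threshold that 18.6% of all genes passed, with Creld2, Sdf2l1 and Syvn1 called by Duncan's test and Edem1 (0.51, and 0.30 without Keap1-HKO array 1) the fourth. Creld2, an ER protein of the folding machinery, read 10.50, 11.42 and 10.13 in Keap1-HKO mice and 9.30, 9.17 and 10.05 in wild-type mice, a difference of 1.18 (limma adjusted p = 0.139). Sdf2l1, which works with the chaperone BiP, read 9.94, 9.51 and 8.95 in Keap1-HKO mice and 8.42, 8.55 and 8.74 in wild-type mice, a difference of 0.90 (adjusted p = 0.0971). Syvn1, the ubiquitin ligase of ER-associated degradation, read 10.39, 10.62 and 10.15 in Keap1-HKO mice and 9.71, 9.68 and 9.58 in wild-type mice, a difference of 0.73 (adjusted p = 0.0993). The genotypes do not overlap for any of these, as for 27.5% of all genes. Creld2 and Syvn1 were highest on array 2, where the pancreatic marker median was 13.9, and Sdf2l1 on array 1, the array that deviated most, where it was 2.38. Without Keap1-HKO array 1 and Nrf2-null array 1 limma called Syvn1 (0.73, adjusted p = 0.0129), in a fit that also called more of all genes. With array 1 as the only Keap1-HKO array the differences were 1.37 for Sdf2l1, 0.995 for Creld2, 0.735 for Syvn1 and 0.917 for Edem1. The part of the pancreatic transcripts in these values was not tested. Hspa5 (BiP itself) differed by −0.39 (adjusted p = 0.488) and Xbp1 by 0.05 (adjusted p = 0.887).

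**Figure D4:**
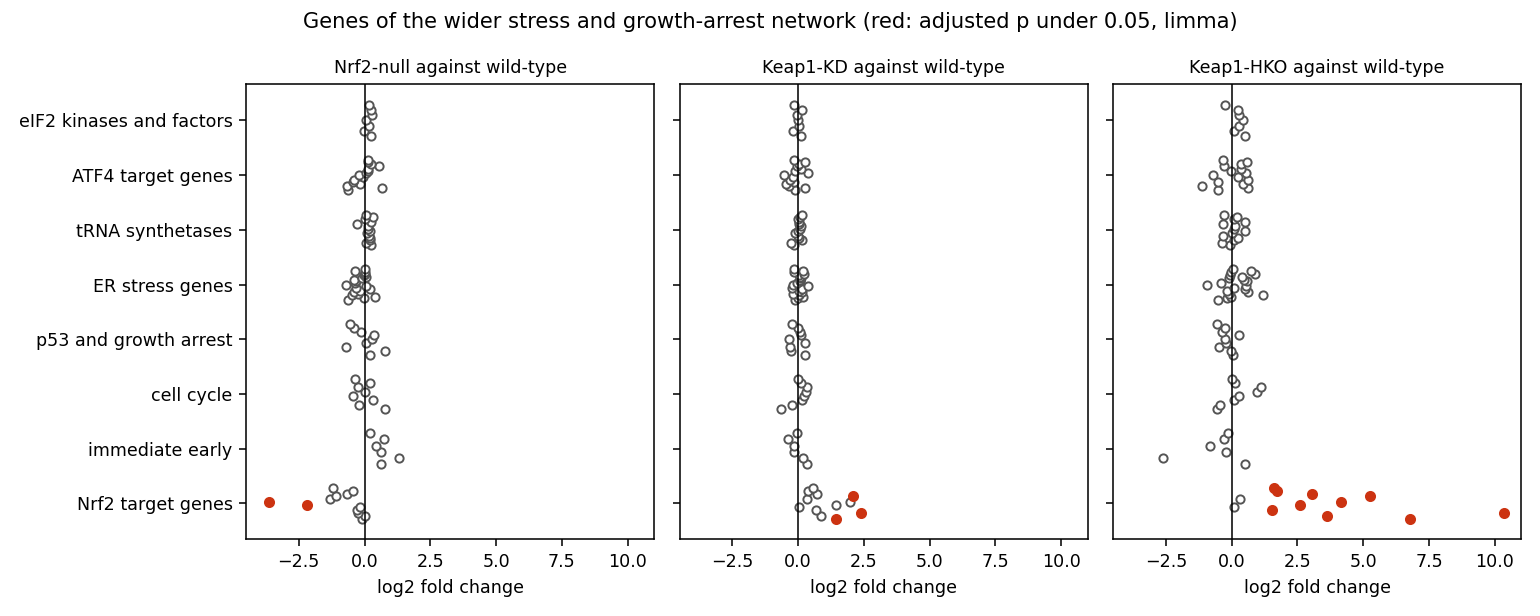
Log2 fold change against wild-type mice (horizontal axis) of every measured gene in 7 stress and growth lists and in a list of Nrf2 target genes, in panels for each of the 3 altered genotypes. Red points passed an adjusted p of 0.05 in limma and are found in the Nrf2 target list, where 10 of 12 are red in Keap1-HKO mice. Of all genes, 3.94% passed in that comparison.

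The growth side of the response was represented by p53 and growth-arrest genes (9 of 26 measured), cell cycle genes (8 of 22) and immediate early genes (6 of 17), which together were 23 genes. Limma called 0 of the 23 in each genotype. At an unadjusted p under 0.05 there were 2 in Keap1-HKO mice (Ccnd1 and Mcm6, 8.7% of the 23 against 18.6% of all genes), 3 in Keap1-KD mice (Ccnd1, Ei24 and Jund, 13% against 2.54%) and 3 in Nrf2-null mice (Ccnd1, Cdk6 and Jund, 13% against 6.92%). Duncan's test called 3 in Keap1-HKO (Ccnd1, Ei24 and Mcm6, 13% against 12%), 2 in Keap1-KD (Ccnd1 and Ei24, 8.7% against 2.25%) and 4 in Nrf2-null mice (Ccnd1, Cdk6, Ei24 and Jund, 17.4% against 5.4%). The unadjusted count in Keap1-HKO mice was 3 without array 1 (13% against 17%). Ccnd1, the G1 cyclin D1, read 6.51, 6.56 and 6.40 in Keap1-HKO mice, 6.47, 6.11 and 6.53 in Keap1-KD mice, 8.06, 7.89 and 7.47 in Nrf2-null mice, and 6.80, 7.23 and 7.09 in wild-type mice. Keap1-HKO and Keap1-KD arrays were below, and Nrf2-null arrays above, all wild-type arrays. Of all genes, 27.5%, 15.2% and 20.8% did not overlap wild-type in these comparisons. The log2 differences of Ccnd1 were −0.55 in Keap1-HKO (limma adjusted p = 0.155), −0.67 in Keap1-KD (adjusted p = 1) and 0.77 in Nrf2-null mice (adjusted p = 0.203). All Keap1-HKO and Keap1-KD values of Ccnd1 lay under 100.

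Mcm6, a subunit of the replicative helicase, read 7.40, 6.70 and 6.19 in Keap1-HKO mice and 5.98, 5.58 and 5.34 in wild-type mice, all of the wild-type values being under 100 (limma adjusted p = 0.0944). Its mean passed 100 in Keap1-HKO mice alone (6.76), so it had its place in the table through that genotype, and without array 1 the difference was 0.81 (adjusted p = 0.172), against 1.13 with it. Jund, an AP-1 subunit, read 8.83, 8.80 and 8.55 in Nrf2-null mice and 7.98, 8.03 and 7.98 in wild-type mice. The difference was 0.73 (adjusted p = 0.203), without overlap, as for 20.8% of all genes. Egr1, an immediate early gene that responds quickly to growth signals, read 6.05, 9.55 and 7.15 in Keap1-HKO mice, 13.52, 12.73 and 8.28 in Nrf2-null mice, and 8.92, 10.16 and 11.50 in wild-type mice. Its difference of −2.61 in Keap1-HKO mice (adjusted p = 0.342) lay within that spread.

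On the same arrays and by the same test the Nrf2 target list gave calls. Of 12 measured genes (of 16), limma called 10 higher in Keap1-HKO mice, where 3.94% of all genes were called in either direction. It called 3 higher in Keap1-KD mice (Abcc4, Cbr3 and Nqo1, against 0.0683%) and 2 lower in Nrf2-null mice (Gstm1 and Gstm3, against 0.41%). Several of the 12, Cbr1 and Nqo1 among them, were reported by the study itself as higher with Nrf2 activation, so their calls were known beforehand. These counts are a description, since wild-type means of Abcc4 (5.25), Cbr3 (3.50) and Nqo1 (4.71) lay under 100 and such genes had their place in the table through the Keap1 genotypes. Cbr3 averaged 5.90 in Keap1-KD mice, also under 100, so no direction is read from it there. Gstm1, a glutathione transferase shown because its wild-type level lay far above 100, differed by 2.60 in Keap1-HKO mice (limma adjusted p = 0.00153), by 1.46 in Keap1-KD mice (adjusted p = 0.500) and by −2.18 in Nrf2-null mice (adjusted p = 0.0129). The comparisons against wild-type mice share the same 3 wild-type arrays, so each comparison's values are given by themselves.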

How the data were processed

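Liver mRNA of 12 mice, 3 of each of 4 genotypes, was measured on Affymetrix arrays. The authors ran gcRMA in R (version not given in the sources used here), which corrects background, normalizes by quantiles and summarizes probe sets, and deposited log2 values for probe sets whose intensity passed 100 in 1 or more groups. The table held 9622 probe sets, of which 8554 named 1 gene, 371 named several and 697 none. Probe names came from a platform annotation table. Each of 5856 genes was read from its probe set of highest mean. The scanner values were not reprocessed.

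Tests were made in limma 3.58.1 (R 4.3.3), in 1 fit over 4 genotypes (8 residual and 2.19 prior degrees of freedom), with p adjusted by Benjamini-Hochberg over all 5856 genes and called under 0.05, two-sided. The slope used weights −3, −1, 1 and 3. Every member with a probe set was named, with all its probe sets, and of the other lists called genes, up to 4 each. Genes named outside this rule are marked. The script was tested on simulated data. Members, lists and alternatives were chosen with earlier results of these data known. The labels name no litter or processing batch, and p-values measure the spread between these 12 livers. The number of arrays limits the precision, and the median SD within genotypes was 0.291. Alternatives were a floor at 100, a filter at 200, a repeated quantile normalization, median centring, other probe set rules, another variance model, array weights, only the 2 genotypes compared, a replicate block, Duncan's test, and leaving out arrays singly or in 2 pairs.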

Additional observations from a re-analysis of the deposited data

How the results depend on the processing

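Precision is limited by 3 mice a group (median within-genotype SD 0.291), Trib3 rests on a wild-type level under 100, and 6 of 10 genes had no probe set in the table. The count of the 4 genes called in Keap1-HKO against wild-type mice was 1. It became 0 with values raised to at least 100, with only the 2 genotypes compared, and with Duncan's test after an adjusted overall test; 2 with Duncan's test alone, with the replicate block and without Keap1-HKO array 1 and Nrf2-null array 1; and ran from 0 to 1 as each array was left out. Trib3 then had an adjusted p of 0.104 after the floor and 0.155 in the 2 genotypes. Array weights, whose estimation stopped before it converged, gave Keap1-HKO arrays 1 and 3 weights of 0.0692 and 0.0231. With them limma called 2 genes in Nrf2-null mice (Trib3, and Asns, which was lower) and 1 in Keap1-KD mice (Trib3), where limma without weights called 0. Over all genes the weighted fit also called many more in both comparisons, as counted in the last paragraph. Trib3 read under 100 on every Nrf2-null and wild-type array, so no direction is read from it there. The weights left Trib3 in Keap1-HKO mice at 1.24 (limma adjusted p = 0.346). In Keap1-KD mice Duncan's test called 1. In Keap1-HKO against Keap1-KD mice, where limma called 0, Duncan's test called 1 and so did leaving out Keap1-HKO array 1 and Nrf2-null array 1. The slope was called for 2 genes, where 9.2% of all genes were called. It was called for 3, with Atf4 added, for the mean of a gene's probe sets (Atf4 −0.25, limma adjusted p = 0.0310), with the replicate block, without Keap1-HKO array 1 (0.0252) and without that array and Nrf2-null array 1 (0.0274). Slope calls over all genes in these other fits are not given here, so the count of 3 is read for the named genes alone. Without Keap1-HKO arrays 2 and 3, which leaves 1 array of that genotype, the Atf5 slope was −0.23.

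Signs turned for differences that were not called. Trib3 in Nrf2-null mice was 0 with the floor and 0.0207 after a repeated quantile normalization, against −0.77. Atf4 in Keap1-HKO against Keap1-KD mice, 0.06, was −0.22 for the mean of its probe sets, −0.12 with array weights, −0.16 without Keap1-HKO array 1 and Nrf2-null array 1, and between −0.16 and 0.23 as single arrays were left out. Trib3 in the same comparison, 0.999, was −0.43 with array weights. Atf4 in Nrf2-null mice, 0.16, was −0.0188 without Keap1-HKO array 1 and Nrf2-null array 1, and −0.0188 to 0.28 over single arrays. Asns in Keap1-HKO mice ran from −0.0564 (without wild-type array 1) to 1.47 as single arrays were left out, and was 1.80 without Keap1-HKO arrays 2 and 3. The cause of these changes was not tested.

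The labels tie the replicate numbers to no shared litter or batch, and the mice were not treated as pairs because not every pair deviated together: of 18 same-numbered pairs 15 had r over 0.1, the range was −0.16 to 0.79, and 10 of 12 arrays correlated best with their own number. With the replicate block, the adjusted p of Atf5 in Keap1-HKO mice was 0.0215 and the slope of Atf4 0.00993, and Trib3 had 0.0240. No other call of the 4 genes changed with it. Over all genes, calls in Keap1-HKO, Keap1-KD and Nrf2-null mice and in Keap1-HKO against Keap1-KD mice numbered 231, 4, 24 and 84; these were 381, 3, 44 and 125 with the block, 318, 323, 1379 and 109 with array weights, 703, 132, 316 and 563 by Duncan's test, 238, 87, 139 and 206 by Duncan's test after an adjusted overall test, 671, 7, 59 and 336 without Keap1-HKO array 1 and Nrf2-null array 1, 49, 7, 13 and 21 in the 2 genotypes alone, and 3053, 5, 28 and 2735 without Keap1-HKO arrays 2 and 3.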
